A study of Homo sapiens with 2 samples.

Results

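The zinc finger genes of human chromosome 19 were described in a clone of the glioblastoma line A172 that withstands temozolomide (TMZ), an alkylating drug given for this tumour, and in the A172 line it came from. Members were the listed genes whose name is ZNF followed by a digit and whose locus is on chromosome 19, leaving out names that end in P and antisense names. There were 190 of them among 15603 listed genes. The resistant group was clone A172-r#6, labelled as kept with TMZ, and the parental group was A172, labelled as kept without it. Each group held 1 library of RNA made with a stranded mRNA kit, so no difference below has a replicate check, no p-value was computed, and the clone, its selection and its exposure to the drug cannot be told apart. Values are FPKM, in which fragments are counted relative to transcript length and library depth.

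Most C2H2 zinc finger proteins of this family bind DNA through a row of small zinc-holding loops and carry a KRAB domain at the other end. KRAB recruits the scaffold TRIM28, which brings the histone methyltransferase SETDB1, HP1 proteins and the NuRD complex and so silences the bound site. Many of these proteins bind retrotransposons. Their genes arose by repeated local duplication, which left them in clusters on chromosome 19, and the 3′ ends of the genes are themselves marked by the same silencing machinery.

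Few of the genes differed by 2-fold, and the direction of the smaller differences varied by cluster. The filter of 1 FPKM in either library was passed by 168 members. On values with 1 FPKM added, a 2-fold difference was reached by 3 members with more RNA in the resistant library and by 3 with less. Among all 13937 genes that passed the filter, 4.59% were 2-fold higher and 3.82% lower, which makes 8.41% in either direction, against 3.57% of the members. By direction, 1.79% of the members were higher and 1.79% lower. Of the other genes of chromosome 19, 4.24% were higher and 1.85% lower. For ZNF-named genes on other chromosomes these shares were 3.33% and 2.38%. In the cluster from ZNF576 to ZNF180, 16 of 19 members were lower in the resistant library and 3 higher. Within it, the run from ZNF404 to ZNF180, chosen after its values were seen, was lower with 1 exception. Genes near the end of the long arm were mostly higher.

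The promoters of the members that passed 2-fold are shown because these genes carry the 2-fold calls of the log2 scale with 1 FPKM added, together with that of ZNF227, the next gene listed after ZNF226. Each is the 250 bases before the gene's start in RefSeq, build GRCh38.p14, read 5′ to 3′ on the gene's own strand. Capitals mark every match, on either strand, to any of 7 motifs, which are the SP1 box GGGCGG, the ETS core CCGGAAG, the NRF1 motif, YY1 AAGATGGC, the CRE TGACGTCA, AP-1 TGANTCA and the TATA box TATAAA.
ZNF121 (chr19:9584505-9584754, minus strand), higher in the resistant library: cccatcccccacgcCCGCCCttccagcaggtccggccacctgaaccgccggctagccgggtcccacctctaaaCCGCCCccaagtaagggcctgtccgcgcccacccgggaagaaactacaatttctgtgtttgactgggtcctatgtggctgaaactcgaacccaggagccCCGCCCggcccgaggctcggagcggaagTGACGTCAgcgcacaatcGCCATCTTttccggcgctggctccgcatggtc
ZNF468 (chr19:52857620-52857869, minus strand), higher in the resistant library: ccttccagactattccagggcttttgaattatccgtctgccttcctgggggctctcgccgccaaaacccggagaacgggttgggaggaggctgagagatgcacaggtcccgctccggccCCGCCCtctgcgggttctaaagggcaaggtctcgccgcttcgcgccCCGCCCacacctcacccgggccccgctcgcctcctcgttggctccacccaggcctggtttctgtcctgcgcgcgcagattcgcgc
ZNF787 (chr19:56121296-56121545, minus strand), higher in the resistant library: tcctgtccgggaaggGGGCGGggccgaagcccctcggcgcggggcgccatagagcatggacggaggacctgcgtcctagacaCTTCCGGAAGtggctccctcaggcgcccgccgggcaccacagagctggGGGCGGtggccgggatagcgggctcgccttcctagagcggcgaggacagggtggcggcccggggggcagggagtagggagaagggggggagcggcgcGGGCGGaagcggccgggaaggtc
ZNF226 (chr19:44164850-44165099, plus strand), lower in the resistant library: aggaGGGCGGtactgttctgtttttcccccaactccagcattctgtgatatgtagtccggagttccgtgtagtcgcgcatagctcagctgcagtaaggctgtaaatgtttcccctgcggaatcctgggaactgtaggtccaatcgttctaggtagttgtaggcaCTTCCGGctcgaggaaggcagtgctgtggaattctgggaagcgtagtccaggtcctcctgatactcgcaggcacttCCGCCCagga
ZNF227 (chr19:44212282-44212531, plus strand), lower but short of 2-fold: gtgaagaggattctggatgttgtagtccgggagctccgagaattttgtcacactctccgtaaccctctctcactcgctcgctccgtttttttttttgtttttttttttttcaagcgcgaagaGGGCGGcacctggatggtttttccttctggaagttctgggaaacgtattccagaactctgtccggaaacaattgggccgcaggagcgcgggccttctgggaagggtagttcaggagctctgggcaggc
ZNF808 (chr19:52527418-52527667, plus strand), listed at 0 in the resistant library: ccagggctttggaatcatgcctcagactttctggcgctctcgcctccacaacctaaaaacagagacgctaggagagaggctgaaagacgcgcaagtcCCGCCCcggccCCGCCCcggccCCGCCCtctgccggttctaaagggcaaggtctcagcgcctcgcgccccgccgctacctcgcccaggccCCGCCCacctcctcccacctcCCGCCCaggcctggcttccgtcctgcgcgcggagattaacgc
Each of the 6 windows held the SP1 box, with 5 matches in ZNF808 and 3 each in ZNF787 and ZNF121. ZNF121 also held 1 CRE and 1 YY1 match, ZNF226 held 1 ETS core, and the 2 ETS matches of ZNF787 lie on opposite strands and share bases.

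The RefSeq promoter table matched all but 18 of the 190 members, ZNF221 among those 18. Over the matched members, the ETS core was found in 33.1% of windows, against 13.5% of the windows of other listed genes and 8.48% of all 34943 windows in the table. The SP1 box was found in 63.4% of members and in 62.5% of other listed genes. The YY1 motif was found in 4.65% of members against 1.73%, NRF1 in 9.88% against 8.58%, the CRE in 2.33% against 2.42%, AP-1 in 6.40% against 4.62% and the TATA box in 2.33% against 5.78%. The median number of CG dinucleotides per window was 16 in members and 20 in other listed genes. A match to such letters is a description of the window and not a bound site.

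Levels of the family were low in both libraries. The median member had 3.46 FPKM in the resistant and 3.43 in the parental library, against 7.14 and 6.84 over all listed genes. The members summed to 1025 FPKM in the resistant and 939 in the parental library. All listed genes summed to 323930 and 299590 FPKM, and the other genes of chromosome 19 to 18306 and 16266. Sums given below were not adjusted for this difference between the libraries. ZNF460 and ZNF580 had the highest levels in both libraries, and ZNF787, ZNF146 and ZNF83 followed in the resistant library. ZNF460 had 45.0 FPKM in the resistant and 36.0 in the parental library. ZNF580 had 37.7 FPKM in the resistant and 31.95 in the parental library. ZNF146, a protein that consists almost wholly of fingers, had 24.3 and 19.3 FPKM in the resistant and parental libraries. ZNF83 was lower in the resistant library, at 21.5 FPKM against 28.0 in the parental one, and of these 5 genes ZNF787 alone reached 2-fold. In a bulk sample, fewer cells that express a gene and less RNA per cell cannot be told apart.

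**Figure D1:**
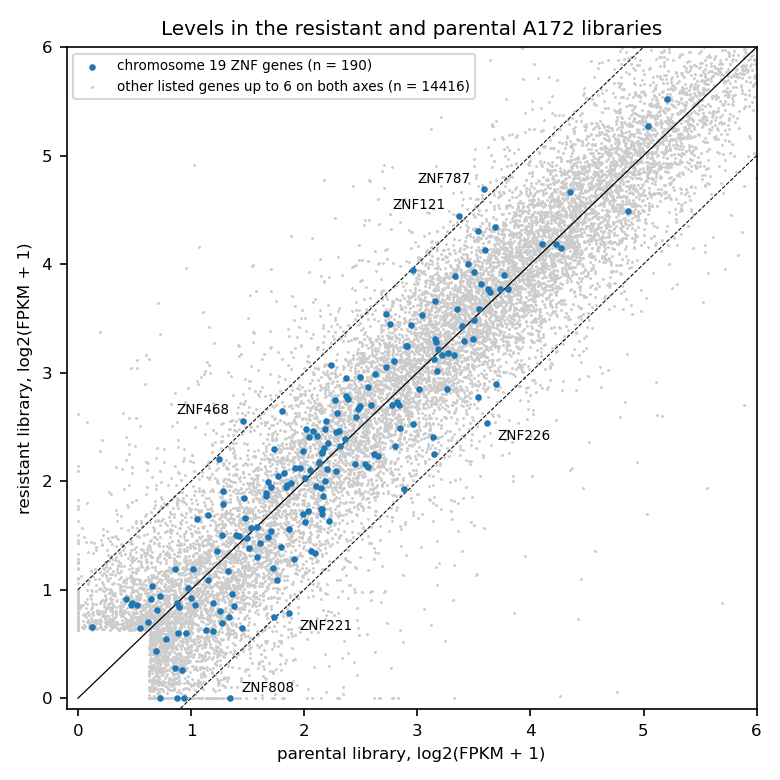
Level of each gene in the resistant library (vertical axis) and the parental library (horizontal axis), both as log2(FPKM + 1), for the 190 chromosome 19 ZNF genes (blue) and 14416 other listed genes (grey); other genes above 6 on either axis are not drawn. The solid line marks equal levels and the dashed lines a 2-fold difference, and the 6 named members lie beyond them.

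Folds are given as the log2 ratio of resistant to parental values after adding 1 FPKM to each, which understates differences of low genes. The median over the 168 tested members was 0.048, with 95 positive and 73 negative, against 0.042 over all tested genes, 0.0175 over 755 other genes of chromosome 19 and 0.063 over 210 ZNF-named genes on other chromosomes. With upper quartile scaling of the libraries the member median turned to -0.0033 and that of all tested genes to -0.029. The standard deviation of the fold across genes was 0.45 for the members, 0.60 for all tested genes, 0.55 for the other genes of chromosome 19 and 0.50 for ZNF genes elsewhere. The middle 50% of members lay between -0.29 and 0.31. At 1.5-fold, 13 members were higher and 15 lower, which is 7.74% and 8.93% of them, against 14.5% and 12% of all tested genes. No member reached 4-fold, which 0.438% of all tested genes did in the higher and 0.423% in the lower direction (0.861% in either).

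Because the members are low, their calls were set beside other genes of similar level. With the higher of the values at 1 to under 5 FPKM, 1.08% of 93 members were higher and 2.15% lower, against 4.08% and 5.84% of 4245 other genes. At 5 to under 10 FPKM none of 43 members was called, against 4.94% higher and 3.88% lower of 2528 other genes. At 10 FPKM or more, 6.25% of 32 members were higher and 3.12% lower, against 4.85% and 2.62% of 6996 other genes. The share called in members lay below that of other genes in the lower 2 ranges and near it in the highest, with no test of the difference.

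The called members with more RNA in the resistant library were ZNF787, ZNF468 and ZNF121. ZNF787 is a gene without a KRAB match (ENSG00000142409, chr19:56087366-56121280, minus strand). ZNF787 had 24.9 FPKM in the resistant and 11.1 in the parental library (log2 fold 1.10), and its transcript shared 0.739% of its 31-base words with other genes. ZNF468, a KRAB gene (ENSG00000204604, chr19:52838008-52890375, minus strand), had 4.88 FPKM in the resistant and 1.75 in the parental library (1.10). The order of these folds depends on the pseudocount, since with 0.5 in place of 1 ZNF468 came to 1.26 and ZNF787 to 1.13. ZNF468 is uncertain, since in GENCODE release 29 it shares exon bases on the same strand with ZNF28 and ZNF320. Its deposited locus (52797408 to 52857649) differs from these coordinates. That locus is shared with ZNF28 and ends before the deposited locus of ZNF320 begins (52861806). The promoter window shown above lies at the end of the deposited locus of ZNF468 and within its GENCODE gene. ZNF121, again without a KRAB match (ENSG00000197961, chr19:9560353-9584533, minus strand), had 20.8 FPKM in the resistant and 9.35 in the parental library (1.08). With upper quartile scaling of the libraries it came to 0.9998, just under 2-fold.

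With 1 FPKM added, the lowest folds with a value above 0 in both libraries were those of ZNF221 and ZNF226, which lie near each other on the long arm. This order also depends on the pseudocount, since with 0.5 in place of 1 ZNF772 came to -1.25 and ZNF226 to -1.15. ZNF221 (ENSG00000159905, chr19:43951223-43967709, plus strand) had 0.718 FPKM in the resistant and 2.65 in the parental library (-1.09). ZNF226 (ENSG00000167380, chr19:44165073-44178381, plus strand) had 4.80 FPKM in the resistant and 11.2 in the parental library (-1.08). Both encode a KRAB domain and a long row of fingers, 15 in ZNF221 and 17 in ZNF226. The remaining lower call, ZNF808 (ENSG00000198482, chr19:52527652-52564464, plus strand), was listed at 0 in the resistant and at 1.55 FPKM in the parental library. ZNF808 shares exon bases with ZNF701, and 44.3% of its words occur in other genes. Just short of 2-fold on this scale was ZNF772, with 0.683 FPKM in the resistant and 2.32 in the parental library (-0.98). ZNF461 followed at 2.80 FPKM in the resistant and 6.37 in the parental library (-0.96), and ZNF227 at 3.75 and 7.86 (-0.90). ZNF224, known as a repressor of the aldolase A gene, had 6.45 FPKM in the resistant and 11.97 in the parental library (-0.80). With 1 FPKM added, ZNF599 had the same fold at a lower level, with 0.570 FPKM in the resistant and 1.74 in the parental library. The plain FPKM ratio of resistant to parental was 0.328 for ZNF599 and 0.538 for ZNF224.

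Just short of 2-fold on the higher side was ZNF581, with 14.4 FPKM in the resistant and 6.79 in the parental library (0.98). ZNF626 followed at 3.60 and 1.38 FPKM in the resistant and parental libraries (0.95). The next 3 were ZNF677 (5.25 FPKM resistant, 2.50 parental), ZNF416 (7.39 resistant, 3.71 parental) and ZNF749 (10.6 resistant, 5.61 parental), with folds from 0.82 to 0.84. ZNF581 shares exon bases with ZNF580 and CCDC106.

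The pseudocount of 1 shrinks the fold of low genes, and these are low. By the plain FPKM ratio, among tested genes above 0 in both libraries, 7 members reached 2-fold on the higher side and 13 on the lower side, which is 4.19% and 7.78% of 167 members, against 8.07% and 7.40% of 13852 genes. Those added on the lower side were ZNF682, ZNF724, ZNF675, ZNF599, ZNF461, ZNF546, ZNF404, ZNF230, ZNF227, ZNF615 and ZNF772, and on the higher side ZNF626, ZNF677, ZNF525 and ZNF581. ZNF675, a KRAB gene known to hold back TRAF6 signalling, had 1.53 FPKM in the resistant and 3.26 in the parental library.

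Exactly 0 was listed for 4 members in the resistant library and for none in the parental one. Over all listed genes, 1.17% were at 0 in the resistant and 0.711% in the parental library. Beside ZNF808, these were ZNF302, ZNF610 and ZNF569, at 0.917, 0.832 and 0.652 FPKM in the parental library. An exact 0 can be a failed estimate, and all 4 were at 1.55 FPKM or below in the parental library, so no fold is printed for them. Their folds on values with 1 FPKM added still enter the counts and the plot along the chromosome, where they depend on the pseudocount. Without genes at 0 the lower calls number 2 of 167 members (ZNF221 and ZNF226) in place of 3, beside 3.39% of 13852 genes. In all, 22 members were under 1 FPKM in both libraries and were not tested. They included ZNF93, a KRAB repressor of LINE-1 elements, at 0.759 FPKM in the resistant and 0.625 in the parental library.

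In the authors' deposited table, 4 members had a q-value under 0.05 and a higher value in the resistant library, and 9 had a lower one. That is 2.11% and 4.74% of 190 members, against 5.13% and 3.98% of all listed genes in the authors' deposited table. The higher ones there were ZNF468 (q = 0.0193), ZNF121 (q = 0.0283), ZNF324 (q = 0.0339) and ZNF562 (q = 0.0442). The lower ones in the authors' deposited table were ZNF226 (q = 0.0186), ZNF221 (q = 0.0250), ZNF772 (q = 0.0369), ZNF30 (q = 0.0397), ZNF227 (q = 0.0492) and the 4 listed at 0. ZNF787 was not among them in the authors' deposited table. A test on 2 libraries compares those libraries and not the conditions.

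Ordered by position, with a gap of over 500 kb between neighbouring starts beginning a new cluster, the members fell into 17 clusters. Of these, 8 had 5 or more tested members and together held 149 of the 168 tested. Their medians ran from -0.40 to 0.34, 5 of them above 0 and 3 below. Coordinates of clusters and genes are those of GENCODE release 29 (GRCh38).

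**Figure D2:**
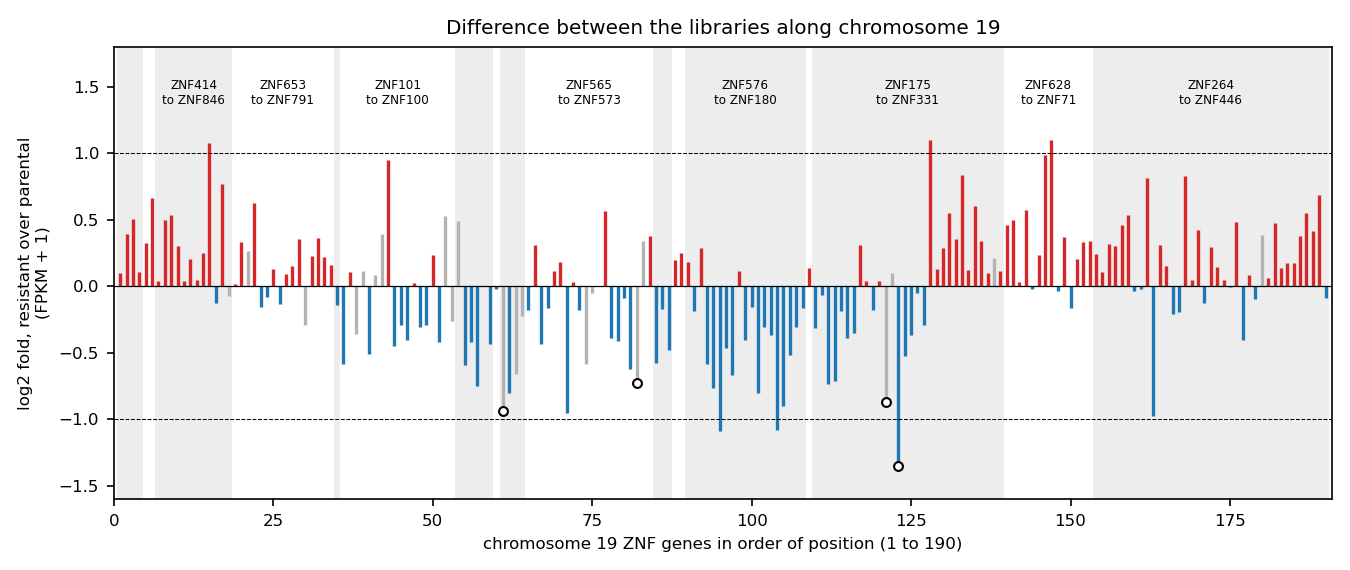
Log2 fold of resistant over parental (FPKM + 1) for the 190 members in order of position along chromosome 19, red where higher in the resistant library, blue where lower, and grey where both libraries were under 1 FPKM. Shaded and white bands mark successive clusters, those with more than 10 members are named, dashed lines mark 2-fold, and open circles mark the 4 genes listed at 0 in the resistant library, whose drawn folds depend on the 1 FPKM added.

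The lowest of the 8 medians belonged to the cluster from ZNF576 to ZNF180 (43596392 to 44500524). Of its 19 members, all tested, 16 were lower in the resistant library and 3 higher, and the median was -0.40. Its members summed to 60.3 FPKM in the resistant and 90.9 in the parental library. Of these, ZNF221 and ZNF226 passed 2-fold. From ZNF404 to ZNF180, a stretch chosen after its values were seen, 15 of 16 members were lower, with a median of -0.49 and sums of 42.2 FPKM in the resistant and 73.1 in the parental library. The exception was ZNF222, at 2.89 FPKM in the resistant and 2.60 in the parental library.

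The members of this stretch with the most RNA in the parental library were ZNF224, ZNF226, ZNF45 and ZNF227. ZNF45 had 5.84 FPKM in the resistant and 10.6 in the parental library (-0.76). Smaller differences were those of ZNF234, at 3.77 FPKM in the resistant and 5.14 in the parental library (-0.36), and of ZNF155, at 2.24 and 3.46 (-0.46). ZNF227 and ZNF235 share exon bases on opposite strands, and whether strand was used in counting is not known here. Before the stretch, ZNF576 stood at 5.34 FPKM in the resistant and 4.58 in the parental library, ZNF428 at 8.90 and 10.2 and ZNF283 at 3.85 and 2.97, so that ZNF428 was the lower one there. In the span of the whole cluster, 5 other tested genes that are no ZNF genes had a median of -0.32, with 4 lower and 1 higher.

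**Figure D3:**
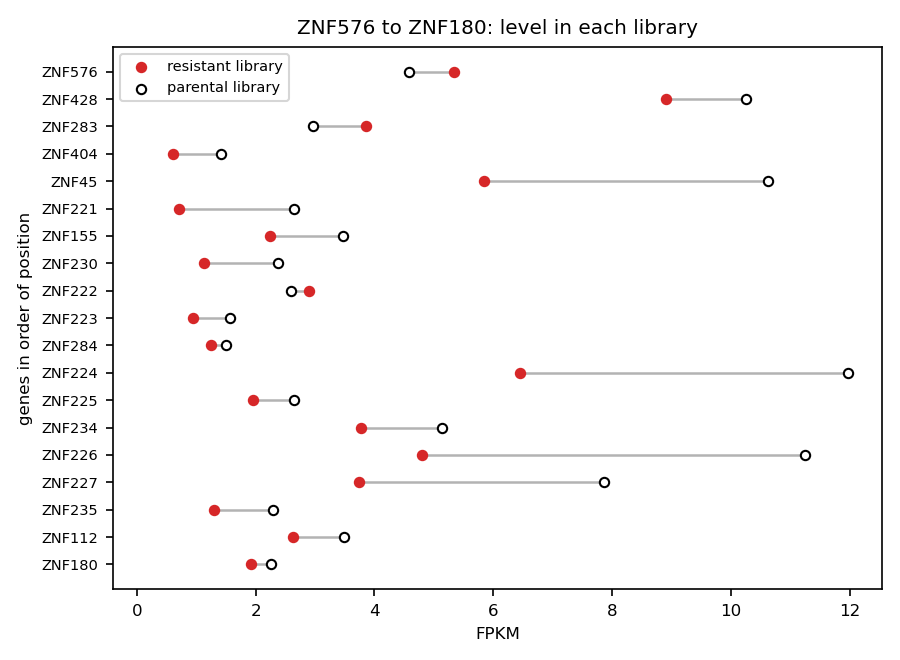
FPKM in the resistant (red) and parental (open) library for the 19 genes of the ZNF576 to ZNF180 cluster, in order of position from top to bottom, 1 library per group. From ZNF404 down, the red point lies left of the open one for every gene except ZNF222.

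The cluster from ZNF175 to ZNF331 (51571298 to 53580269) had a median of 0.038, with 14 of 27 tested members higher and 13 lower, and the median turned to -0.024 with upper quartile scaling and to -0.058 without genes that share a locus. It was divided by position at a place chosen after the values were seen. From ZNF175 to ZNF28, 13 of 16 tested members were lower in the resistant library (median -0.30, sums of 65.2 FPKM in the resistant and 84.6 in the parental library). From ZNF468 to ZNF331, all 11 tested members were higher (median 0.34, sums of 73.6 FPKM in the resistant and 54.5 in the parental library). These may not be 11 separate measurements. ZNF845, ZNF525 and ZNF765 share a deposited locus, and so do ZNF320 and ZNF816. ZNF28 and ZNF468, on either side of the break, share a locus and exon bases. Of the 11, only ZNF160, ZNF347, ZNF677 and ZNF331 share no locus, with 3.72% to 11% of their words found in other genes. In the remaining members that share ran from 22.8% in ZNF845 to 99.5% in ZNF320. The part of shared reads was not tested. The folds on the ZNF175 side included ZNF350, a repressor that binds BRCA1, at 4.31 FPKM in the resistant and 7.82 in the parental library (-0.73), and ZNF615, at 1.56 and 3.18 (-0.71). On the other side ZNF160 had 14.995 FPKM in the resistant and 9.93 in the parental library (0.55), ZNF525 had 2.15 and 1.07 (0.60) and ZNF331, which is known to be imprinted, had 5.51 and 5.01 (0.12). Other genes were few here, 3 on each side, with medians of -0.27 and 0.12.

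**Figure D4:**
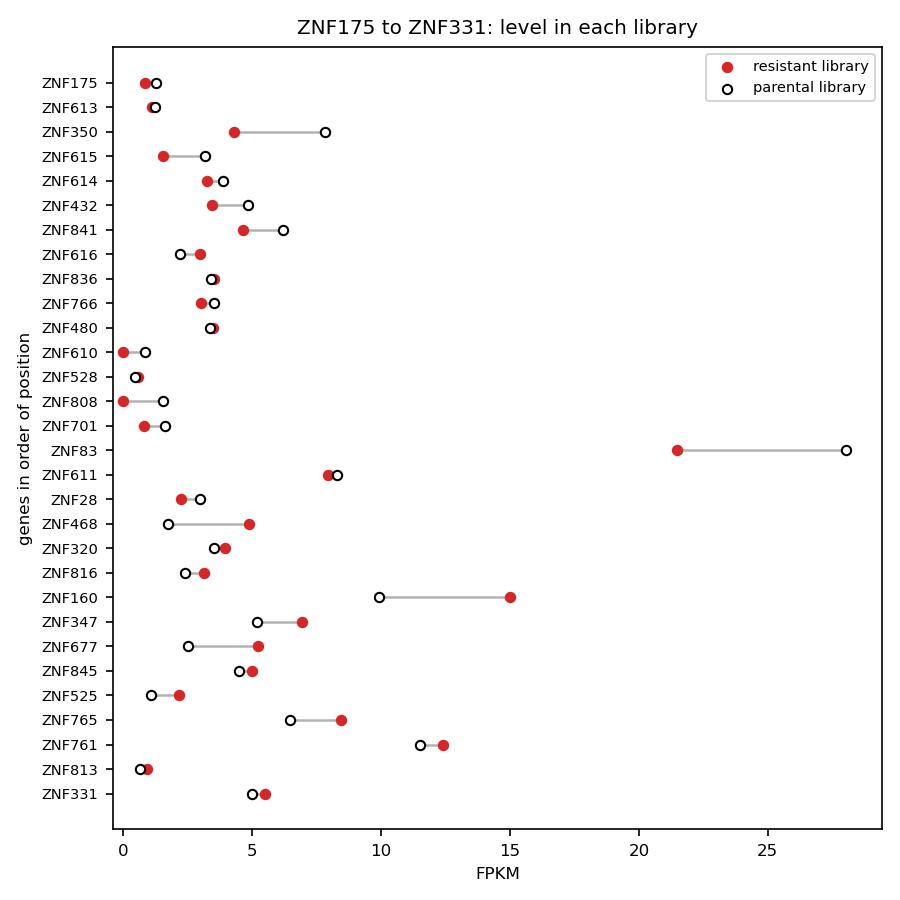
FPKM in the resistant (red) and parental (open) library for the 30 genes of the ZNF175 to ZNF331 cluster, in order of position from top to bottom, 1 library per group. Most red points lie left of the open ones down to ZNF28 and all lie right of them from ZNF468 on.

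The clusters next to the centromere were also on the lower side. From ZNF101 to ZNF100 (19668796 to 21767628), 8 of 12 tested members were lower in the resistant library, with a median of -0.30. ZNF101 had 2.11 FPKM in the resistant and 3.65 in the parental library (-0.58), and ZNF85 had 3.47 and 4.47 (-0.29), while ZNF626 was higher, as given above. From ZNF730 to ZNF254, all 4 tested members were lower, from -0.75 to -0.42. They include ZNF91, the KRAB repressor of SVA retrotransposons and the member with the most fingers, 31, which had 6.20 FPKM in the resistant and 8.62 in the parental library (-0.42). ZNF254 had 4.76 FPKM in the resistant and 6.77 in the parental library (-0.43). From ZNF565 to ZNF573 on the long arm (36182060 to 37817300), 9 of 16 tested members were lower, with a median of -0.13 and folds from -0.96 for ZNF461 to 0.57 for ZNF420. The 3 genes from ZNF546 to ZNF780A were all lower, from -0.58 to -0.17.

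Apart from the lone gene ZNF333 (-0.14), the other clusters of the short arm were on the higher side. From ZNF414 to ZNF846 (8509678 to 9793180), 10 of 11 tested members were higher in the resistant library, with a median of 0.25. ZNF121 lies here, and so do ZNF562, at 18.8 FPKM in the resistant and 10.6 in the parental library (0.77), and ZNF317, at 16.6 and 11.1 (0.54). The 1 lower member was ZNF561, at 16.7 FPKM in the resistant and 18.2 in the parental library (-0.12). ZNF561 and ZNF562 both share exon bases with ZNF561-AS1 on the opposite strand, so reads of the pair and of that RNA may not be told apart. From ZNF653 to ZNF791, 11 of 14 were higher (median 0.16). The 4 genes from ZNF554 to ZNF77, nearest the short arm's end, were all higher, from 0.10 to 0.51.

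From ZNF628 to ZNF71 (55476332 to 56626481), 11 of 14 tested members were higher, with a median of 0.34 and sums of 152 FPKM in the resistant and 115 in the parental library. Of these 14 members 9 have no KRAB match, ZNF787, ZNF580 and ZNF581 among them. ZNF444, a SCAN-domain gene, was level there, at 17.2 FPKM in the resistant and 17.7 in the parental library. The last cluster, from ZNF264 to ZNF446 near the end of the long arm (57191500 to 58481230), held 36 tested members, 26 of them higher, with a median of 0.16 and sums of 302 FPKM in the resistant and 253 in the parental library. ZNF304, a KRAB gene, had 6.76 FPKM in the resistant and 4.63 in the parental library (0.46), while ZNF274, which brings SETDB1 to the 3′ ends of zinc finger genes, had 13.9 FPKM in the resistant and 12.6 in the parental library (0.13). ZNF772 stood apart from its neighbours here as the lowest member. In the same span, 24 other tested genes had a median of -0.11, with 9 higher and 15 lower.

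**Figure D5:**
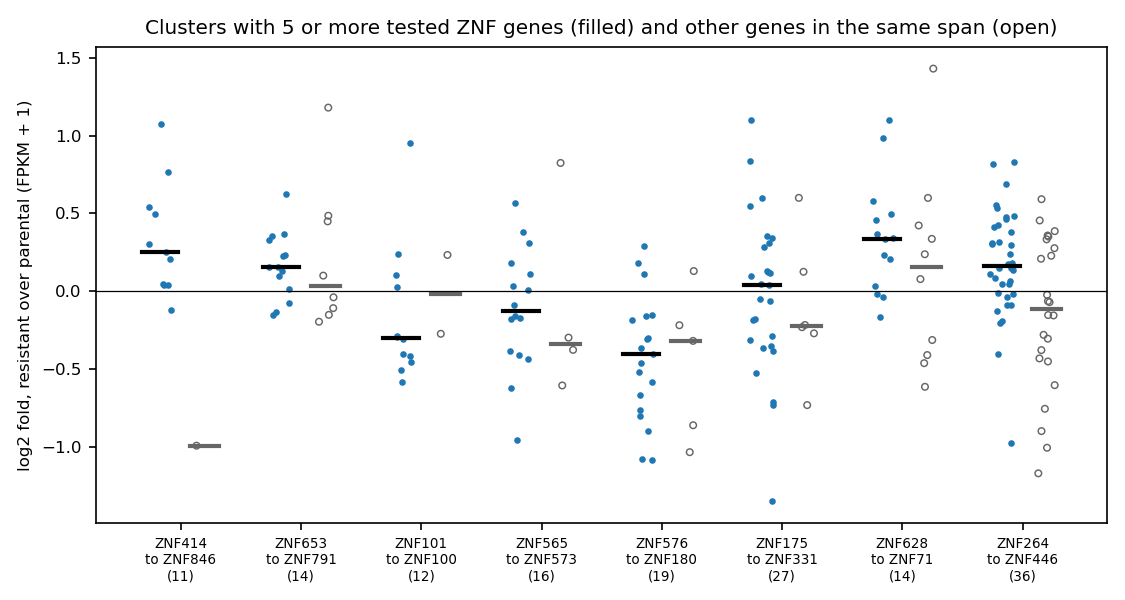
Log2 fold of resistant over parental (FPKM + 1) for tested members (filled, left) and for other tested genes within the same span (open, right) in the 8 clusters with 5 or more tested members, whose number stands in parentheses. Bars are medians over genes; those of the members run from -0.40 for ZNF576 to ZNF180 to 0.34 for ZNF628 to ZNF71.

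Neighbours within a cluster mostly differed the same way. Of 151 neighbouring pairs of tested members in 1 cluster, 97 (64.2%) had folds of the same sign. For pairs with different deposited loci it was 74 of 109 (67.9%), against 55.5% of 8935 pairs of neighbours among all other genes and 54.6% of 540 on the rest of chromosome 19, both under the same gap rule and with different loci. Across those 109 pairs the folds correlated with Pearson's r of 0.36, against 0.16 for all other genes and 0.21 for the rest of chromosome 19. This is a description across genes of the same pair of libraries, and the part of reads shared between paralogs was not tested.

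Several named pairs of paralogs sit side by side. ZNF585A had 2.07 FPKM in the resistant and 3.01 in the parental library, and ZNF585B had 2.36 and 3.46. ZNF324, which shares exon bases with ZNF446, had 9.91 FPKM in the resistant and 5.78 in the parental library and ZNF324B had 5.89 and 4.18. In both of these pairs the copies differed the same way. Of their 31-base words, ZNF585A shares 22.5%, ZNF585B 32.7%, ZNF324 37.7% and ZNF324B 22.7% with other genes. ZNF587 was level, at 17.2 FPKM in the resistant and 16.2 in the parental library, while ZNF587B had 10.6 and 7.26. ZNF587 shares 33.0% and ZNF587B 49.1% of its words with other genes. The part of shared reads in these values was not tested. Over all members the median share of 31-base words found in another gene's transcript was 7.93%, and 12 members, among them ZNF177 and ZNF320, shared 50% or more. Their values are uncertain.

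By encoded domain, 160 members had a match to the KRAB A box and 30 had none. The tested KRAB members had a median log2 fold of 0.044 (74 of 139 higher), with 1 called higher and 3 lower. Those without a match had a median of 0.18 (21 of 29 higher), with 2 called higher and none lower. As shares these calls are 0.719% higher and 2.16% lower of KRAB members and 6.90% higher of the others, beside 4.59% higher and 3.82% lower of all tested genes, and they rest on 6 genes in all. The genes without a KRAB match had the higher levels, with medians of 7.58 FPKM in the resistant and 7.36 in the parental library. Those with a match had 3.07 and 3.20. Of the 29 tested genes without a match, 9 lie in the cluster from ZNF628 to ZNF71. Across tested members the fold followed level with a Spearman rho of 0.30 and finger number with a rho of -0.16 (n = 168), both as descriptions across genes of the same pair of libraries. Members encoded a median of 12.5 C2H2 fingers.

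The silencing machinery that KRAB recruits was read from a list of 29 genes, all measured. None was called higher and 1 (CHD3) was called lower, beside 4.59% and 3.82% of all tested genes. The list had a median of -0.14 against 0.042 over all tested genes and 19 of 29 negative. TRIM28, the scaffold that KRAB binds, had 199 FPKM in the resistant and 203 in the parental library (-0.03), and SETDB1 had 28.9 and 32.9 (-0.18). The 1 called lower was CHD3, a NuRD helicase, at 38.5 FPKM in the resistant and 82.6 in the parental library (-1.08). The HP1 gene CBX5 had 34.4 FPKM in the resistant and 65.7 in the parental library (-0.91), the ATPase MORC2, which works with the HUSH complex, had 12.1 and 6.55 (0.79), and the histone methyltransferase SUV39H2 had 8.80 and 14.2 (-0.63).

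Zinc finger genes of chromosome 19 under other names were also looked for, and 13 of the 24 names were listed. The Krüppel-like factors KLF2, at 18.95 FPKM in the resistant and 6.60 in the parental library (1.39), and KLF16, at 15.3 and 6.48 (1.13), were called higher. ZSCAN18 was called lower and was listed at 0 in the resistant and at 1.25 FPKM in the parental library. These 2 higher calls and 1 lower call of 13 genes stand beside 4.59% and 3.82% of all tested genes. The median of the 13 was 0.18. ZBTB7A had 11.4 FPKM in the resistant and 5.84 in the parental library (0.85).

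A list of 7 markers of a glioma or mesenchymal line was VIM, CD44, FN1, SPARC, NES, SOX2 and EGFR. VIM had 804 FPKM in the resistant and 632 in the parental library, and CD44 had 161 and 83.1. Of the 7, FN1 was called higher and NES and SOX2 lower, beside 4.59% and 3.82% of all tested genes. The list summed to 4900 FPKM in the resistant and 3646 in the parental library. SPARC made 3856 and 2854 FPKM of these sums, while NES had 5.08 FPKM in the resistant and 33.7 in the parental library and SOX2 had 0.253 and 2.23. None of the 5 astrocyte markers, GFAP among them, had a value here. The epithelial list, 3 of 4 measured, summed to 1609 FPKM in the resistant and 605 in the parental library. Of these sums KRT8 made 905 and 213 and KRT18 made 702 and 392, while EPCAM had 0.669 and 0.797. The endothelial list, 2 of 3 measured, summed to 0.164 FPKM in the resistant and 1.504 in the parental library, the myeloid and lymphoid list, 2 of 5, to 0.919 and 2.52, the oligodendrocyte list, 2 of 4, to 3.54 and 2.04, and the neuronal list, 1 of 3, to 16.1 and 13.3. The part of these in the zinc finger values was not tested.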

How the data were processed

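RNA of 1 resistant and 1 parental culture of A172 was sequenced with a stranded mRNA kit, per the labels. The authors deposited FPKM for each library, with their log2 ratio and their p-values and q-values, per the file headers. Which aligner, counting tool and build were used is not given in the sources used here. Loci of all 190 members matched GENCODE release 29 (GRCh38) by identifier. The deposited locus contained the GENCODE gene in 187. The smallest higher value of any listed gene was 0.544 FPKM.

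Depth is unknown. Low values of single-exon genes lay within 0.1 of whole multiples of a step in at most 25.5%, against 20% by chance at any 1 step size, so no fragment counts were recovered.

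Folds used a pseudocount of 1, a filter of 1 FPKM in either library and a call at 2-fold (log2 of 1). Clusters split at gaps over 500 kb. Fingers (cysteines 2 to 4 residues apart, 12 residues, histidines 3 to 5 apart) and KRAB A boxes, by a residue pattern, were counted in the longest coding sequence of GENCODE; divergent boxes can be missed. Named genes were those called, at 0, highest or lowest 10, most abundant, at cluster ends or of known role; others were chosen after their values were seen. Members and lists were chosen with earlier results of these data known. Python 3.11.15, pandas 2.3.3 and numpy 2.4.6 were used. The calling rule was run on simulated data with 4-fold differences planted in genes above the lowest levels. That run held no planted difference near 2-fold and none in the lowest genes, so it does not cover such calls.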

Additional observations from a re-analysis of the deposited data

How the results depend on the processing

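Calls depended on threshold and pseudocount. Members called higher and lower, 3 each in the report, numbered 5 and 6 of 168 with a pseudocount of 0.5, where 6.21% and 5.47% of all genes were called. They numbered 6 and 13 with 0.1 (7.72% and 7.38% of all genes), 13 and 15 at 1.5-fold (14.5% and 12%) and 0 and 0 at 4-fold (0.438% and 0.423%). By the plain ratio, an alternative chosen after seeing the data, they numbered 7 and 13 of 167 (8.07% and 7.40%). Members called lower numbered 1 of 75 with the 5 FPKM filter (2.94% of all genes), 5 of 168 with upper quartile scaling (4.44%) and 9 of 190 in the authors' deposited table at q under 0.05 (3.98%). That scaling moved the median of all tested genes to -0.029 and the member median to -0.0033, that of other chromosome 19 genes to -0.048, that of ZNF genes elsewhere to -0.0094 and that of ZNF175 to ZNF331 to -0.024. Without a filter the other chromosome 19 genes had -0.0038. The cause was not tested.

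The median of ZNF576 to ZNF180 stayed below 0 under every setting run, at -0.52 and -0.60 with the lower pseudocounts, -0.63 by the plain ratio, -0.76 with the 5 FPKM filter (7 members) and -0.51 without shared loci (8 members). ZNF101 to ZNF100 had -0.42 with a pseudocount of 0.1, -0.44 by the plain ratio and -0.42 with the 5 FPKM filter, on 1 member. With the 5 FPKM filter ZNF414 to ZNF846 had 0.38, above the 0.36 of ZNF628 to ZNF71, and ZNF264 to ZNF446 had 0.27. Without shared loci ZNF414 to ZNF846 had 0.40, above the 0.37 of ZNF628 to ZNF71, ZNF565 to ZNF573 had -0.31, ZNF264 to ZNF446 had 0.30 and ZNF175 to ZNF331 had -0.058. A gap of 250 kb gave 28 clusters in place of 17.

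No paired analysis was possible because each group held 1 library. Leaving out a library would leave 1 group empty and was not run. Depth is unknown, so no counting error can be given for the 93 members whose higher value was 1 to under 5 FPKM.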
